A study of Mus musculus with 10 samples.

Results

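Elongating spermatids (ES) were the post-meiotic cells that the authors' RNA annotation of the mouse testis placed after round spermatids (RS). Their cells were taken by that annotation and numbered 1195 of 45250 scRNA-seq cells. In scATAC-seq, 124 of 343866 cells carried the ES label, transferred from the RNA of the same barcode. Nuclei of whole dissociated testes of C57BL/6J mice were profiled for RNA and open chromatin together, with 1 library per condition and assay. The wild-type testes were taken at 11, 17 and 25 days post partum (dpp). The 8-week-old testes were Cre/+, which carry the germ-cell driver Stra8-P2A-ZsGreen1-T2A-Cre, and Nfya-CKO, in which that driver deletes exons 5 to 6 of Nfya, a DNA-binding subunit of the transcription factor NF-Y. Expression was available as the mean of each of 13 cell populations: 9 germ cell populations of the control testes, 3 somatic populations and the undifferentiated spermatogonia of the Nfya-CKO. The control germ cell populations were undifferentiated and differentiating spermatogonia (undiff. SpG, diff. SpG), preleptotene (pL), early leptotene to zygotene (eL/L/Z), leptotene to early pachytene (L/Z/eP), mid to late pachytene (mP/lP) and diplotene (D) spermatocytes, RS and ES. No condition was replicated, so differences are given as sizes without a test.

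During spermiogenesis the haploid round spermatid condenses its nucleus and builds the flagellum and acrosome. Most histones leave the chromatin, first for transition proteins and then for protamines, which are short arginine-rich proteins that pack the sperm DNA. Transcription fades as this happens, and many messages of the late spermatid are made earlier and held untranslated by RNA-binding proteins until they are needed. Sertoli cells, the somatic nurse cells of the tubule, hold elongating spermatids in pockets of their cytoplasm, and Leydig cells make testosterone between the tubules.

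The promoters of the protamine genes Prm1, Prm2 and Prm3 and of the transition protein genes Tnp1 and Tnp2 are shown because these genes package the spermatid nucleus and their RNA and open chromatin are compared below. Prm1, Prm2, Prm3 and Tnp2 are neighbours on chromosome 16 and Tnp1 is on chromosome 1. Each sequence is the RefSeq window of 300 bases on GRCm38.p6, which is the mm10 build, from 250 bases before to 50 after the transcription start, read 5′ to 3′ in the direction of the gene. Capitals mark the 8-letter pattern TGANNTCA, which includes the cAMP response element bound by CREM, a transcription regulator of spermatids.
Prm1, chr16:10796774-10797073, minus strand: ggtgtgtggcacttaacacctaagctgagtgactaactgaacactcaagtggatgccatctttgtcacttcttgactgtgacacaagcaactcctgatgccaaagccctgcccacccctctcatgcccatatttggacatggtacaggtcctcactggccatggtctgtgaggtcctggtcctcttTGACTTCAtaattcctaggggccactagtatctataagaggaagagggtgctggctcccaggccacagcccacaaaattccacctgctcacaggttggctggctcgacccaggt
Prm2, chr16:10792056-10792355, minus strand: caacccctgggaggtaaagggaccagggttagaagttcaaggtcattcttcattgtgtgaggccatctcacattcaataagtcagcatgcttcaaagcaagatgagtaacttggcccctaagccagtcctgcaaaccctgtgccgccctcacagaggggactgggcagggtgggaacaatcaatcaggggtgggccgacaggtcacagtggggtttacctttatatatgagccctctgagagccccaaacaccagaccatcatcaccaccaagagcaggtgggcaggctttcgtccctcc
Prm3, chr16:10790865-10791164, minus strand: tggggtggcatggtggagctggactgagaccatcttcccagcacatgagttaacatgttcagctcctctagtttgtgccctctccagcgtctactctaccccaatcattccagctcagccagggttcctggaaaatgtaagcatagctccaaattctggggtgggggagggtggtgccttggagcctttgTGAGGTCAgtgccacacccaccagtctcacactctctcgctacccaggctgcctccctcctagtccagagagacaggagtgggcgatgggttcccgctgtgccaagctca
Tnp1, chr1:73015850-73016149, minus strand: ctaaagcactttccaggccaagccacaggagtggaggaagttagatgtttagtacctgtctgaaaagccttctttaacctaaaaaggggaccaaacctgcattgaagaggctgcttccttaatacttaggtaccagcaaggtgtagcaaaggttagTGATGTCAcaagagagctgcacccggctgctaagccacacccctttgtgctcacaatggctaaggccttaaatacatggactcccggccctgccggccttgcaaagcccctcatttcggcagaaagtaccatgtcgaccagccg
Tnp2, chr16:10788606-10788905, minus strand: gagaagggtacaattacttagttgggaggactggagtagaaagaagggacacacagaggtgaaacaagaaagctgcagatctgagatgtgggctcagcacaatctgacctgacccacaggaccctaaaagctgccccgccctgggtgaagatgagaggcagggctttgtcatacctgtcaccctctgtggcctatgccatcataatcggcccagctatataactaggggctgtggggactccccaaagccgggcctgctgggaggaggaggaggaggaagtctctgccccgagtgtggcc

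The pattern TGANNTCA, which reads alike on both strands, was in 3 of the 5 windows, beginning 64 bases before the start of Prm1, 60 before that of Prm3 and 94 before that of Tnp1. Among all 32851 RefSeq promoter windows of this length 14.1% held it. The letters TATAA, searched on both strands, were in the windows of Prm1, Prm2 and Tnp2, beginning 32, 30 and 33 bases before the start, and in 24.9% of all windows. The letters CCAAT, the core that NF-Y binds, were in the window of Prm3 among these 5 genes, 150 bases before its start, and in 37.4% of all windows, both strands searched. These matches describe letters in a window and do not show that a factor is bound.

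The ES cells were almost all assigned to the Cre/+ library. That library held 1190 of them among 11991 cells, or 9.92% (95% exact Clopper-Pearson interval 9.39 to 10.5%), beside 5639 RS cells. The 25 dpp library held 3 ES cells and 1676 RS cells among 18039. The 11 dpp, 17 dpp and Nfya-CKO libraries held 0, which, taken as 3 counts over the cells of the library, allows shares of up to 0.0478%, 0.0801% and 0.0582%. A further 2 ES cells had no library name and carried the prefix of the Cre/+ library in their cell names. The intervals and limits here cover counting error alone, and libraries ranged from 1446 to 7603 unique molecular identifiers (UMIs) per cell at the median.

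The ES label joined 2 expression clusters, and they differed in their barcodes before any gene was considered. Cluster 22 held 747 cells and cluster 27 held 448, and neither held cells of another label. Of the cells of cluster 22, 705 (94.4%) had a barcode that also occurred in the scRNA-seq library of the Nfya-CKO testis, and in each of those 705 pairs the Nfya-CKO cell was labelled somatic (CKO), the somatic population found mostly in that library. In cluster 27 such barcodes numbered 6 (1.34%). The label of the partner was not particular to ES. By the prefix of the cell name, it was somatic (CKO) for 609 of 610 such RS cells of the Cre/+ library and for 1112 of 1112 mP/lP cells. In D it was so for 504 of 535 and in diff. SpG for 305 of 449. Barcode numbers in the cell names ran up to 56180735, and 4540 of 39716 barcodes occurred in 2 of the 5 scRNA-seq libraries and 497 in 3 or more. What made libraries share barcodes was not tested, nor whether the cells on them are spermatids of the Cre/+ testis. What the ES share of that library and the pooled ES means describe depends on this.

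The shared barcodes of ES cells also differed in depth from those of most other germ cells, counted here by the library prefix of the cell name, which adds the few cells without a library name. Over all 711 pairs the ES cell had a median of 3198 UMIs and the Nfya-CKO cell 29650, and the ES cell was the shallower one in 677. Among RS cells of the Cre/+ library 610 of 5647 (10.8%) shared a barcode with the Nfya-CKO library, with medians of 7842 UMIs in the RS cell and 778 in its partner, and 3 RS cells were the shallower of the pair. In mP/lP the share was 78.6% and 0 of 1112 cells were the shallower. The somatic (CKO) cells of the Cre/+ library resembled the ES cells in this, with 318 of 342 shared and 295 shallower than their partner. Of the cluster 22 barcodes, 647 also occurred in the scATAC-seq library of the Nfya-CKO testis, where 644 were typed as Sertoli cells. None of the 448 barcodes of cluster 27 occurred there, which allows a share of up to 0.670%. Without cells on shared barcodes, the Cre/+ library held 478 ES cells, 5.85% of the cells that remained.

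**Figure D1:**
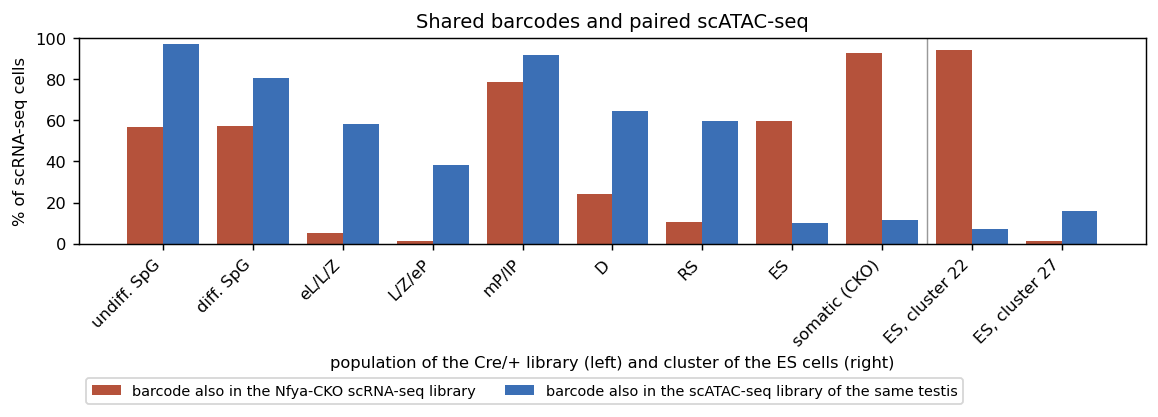
Percentage of scRNA-seq cells of the Cre/+ library whose barcode also occurred in the Nfya-CKO scRNA-seq library (red) and in the scATAC-seq library of the same testis (blue), by population, with the ES cells of all libraries split by cluster at the right. Cluster 22 stands at 94.4% shared and 6.96% with scATAC-seq, and cluster 27 at 1.34% and 16.1%.

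ES cells had far fewer UMIs than pachytene cells, and their order against RS changed when shared barcodes, nearly all in cluster 22, were left out. The Cre/+ ES cells had a median of 2548 UMIs and 1726 genes with 0.777% mitochondrial UMIs, against 2050 UMIs and 1069 genes in RS and 13985 UMIs in mP/lP. Cluster 22 had 3198 UMIs, 2349 genes and 0.660% mitochondrial UMIs, and cluster 27 had 1599.5, 809 and 1.49%. The ratio of median UMIs to median genes was 1.36 in cluster 22, 1.98 in cluster 27, 1.92 in Cre/+ RS and 1.44 in Cre/+ somatic (CKO) cells. Without shared barcodes the Cre/+ ES cells had a median of 1626 UMIs and 825 genes, fewer than the 1844 UMIs and 983 genes of RS. Over all libraries, 439 of the 481 ES cells on unshared barcodes were in cluster 27, so leaving out shared barcodes also changed the mix of clusters. The 42 unshared cells of cluster 22 had medians of 3873 UMIs and 1783 genes. The expression values below are the authors' means over the whole ES label, both clusters included. They could not be divided by cluster or barcode, because the expression of single cells was not analysed here.

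The 4 genes that mark elongating spermatids, Prm1, Prm2, Tnp2 and Odf1, were each higher in ES than in the other 12 populations. The annotation was itself made from marker genes, so this describes the label and does not test it. Whether both clusters carried these markers was not analysed here. All RNA levels are UMIs per 10000, not corrected for gene length. Tnp2, a transition protein gene, stood at 0.199 in undiff. SpG, 3.21 in diff. SpG, 0.00659 in pL, 0.147 in eL/L/Z, 0.375 in L/Z/eP, 1.38 in mP/lP, 4.16 in D, 11.1 in RS and 49.3 in ES. Prm1 stood at 0.155 in undiff. SpG, 3.94 in diff. SpG, 0.00525 in pL, 0.0489 in eL/L/Z, 0.135 in L/Z/eP, 1.13 in mP/lP, 4.11 in D, 10.3 in RS and 40.8 in ES. Both climbed from D through RS to ES, and both had more RNA in diff. SpG, a population before meiosis, than in mP/lP.

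The remaining members of the group followed the same order of populations from D to ES. Tnp1, the other transition protein gene, was at 18.5 in ES, 4.37 in RS and 1.71 in D. Prm2, the second protamine of the mouse, was at 9.74, 3.79 and 1.47, and Prm3, a gene in the protamine cluster, at 2.61, 1.97 and 0.586. On the log2 scale with 0.1 added, ES exceeded RS by 2.14 for Tnp2, 2.06 for Tnp1, 1.98 for Prm1, 1.34 for Prm2 and 0.39 for Prm3. Of these 5, 4 were at least 2-fold higher, and 1484 of 13368 genes tested (11.1%) were so over all genes, with an all-gene median log2 ratio of 0.12. Prm1, Prm2 and Tnp2 are markers of the label itself, so nothing is read from this count. Outside the control germ cells Prm1 and Tnp2 were at 2.10 and 2.66 in somatic (unknown) and at 1.54 and 2.03 in somatic (CKO). Sertoli cells held 0.00198 and 0.00523 and undiff. SpG of the Nfya-CKO 0.0171 and 0.00605.

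**Figure D2:**
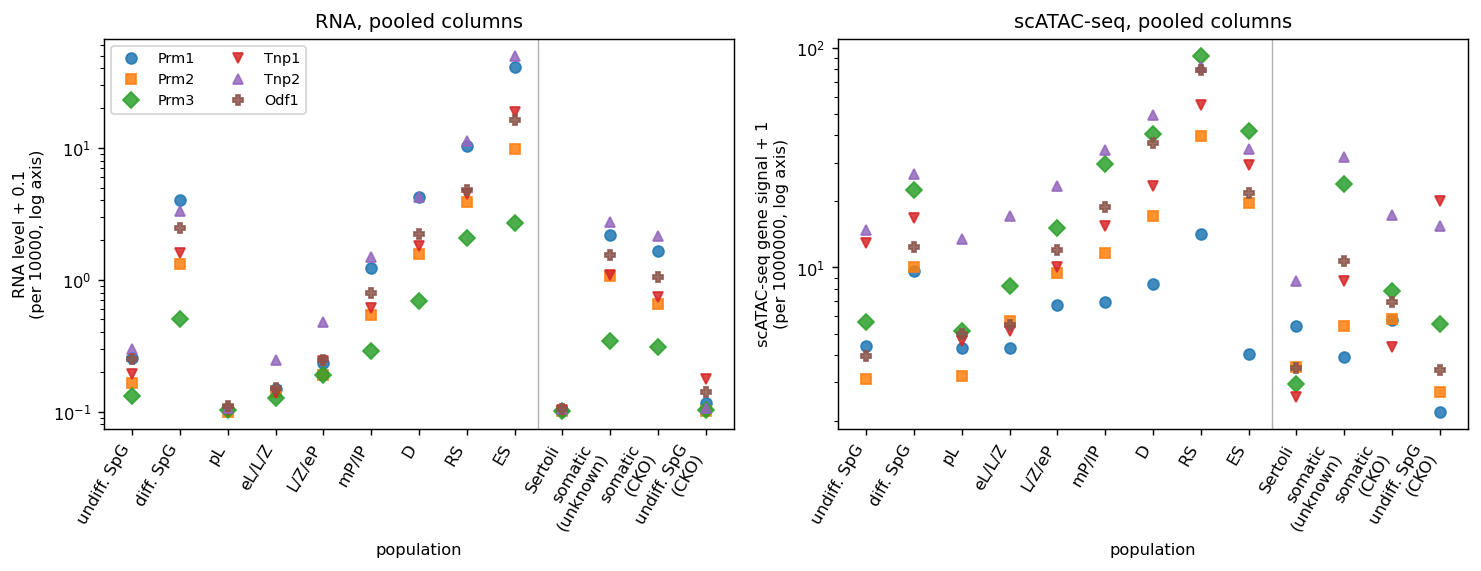
RNA level (left, UMIs per 10000 with 0.1 added) and scATAC-seq gene signal (right, per 1000000 with 1 added) of 6 spermatid genes in each of the 13 populations, both on log axes, 1 point per gene and pooled population. In RNA every gene is highest in ES, Tnp2 at 49.3 and Prm1 at 40.8, whereas in scATAC-seq every one of the 6 is lower in ES than in RS, Prm1 at 3.02 against 13.2.

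Across all 13368 genes tested, those with at least 0.2 per 10000 in at least 1 of the 9 control germ cell populations, 302 (2.26%) were at least 2-fold higher in ES than in every other one of these populations. The count was 63 with 1 added in place of 0.1, and 177 of 5871 with a minimum of 1 per 10000, which all 177 met in ES. Some of the 302 passed the minimum of 0.2 through ES alone, so nothing is read from their calls. Examples are Myl9, at 0.860 in ES and at most 0.158 in another control germ population, and Wnt4, at 0.268 and 0.0134. In 141 of the 302 genes ES also exceeded each of the 3 somatic populations at least 2-fold. In 148 (49.0%) some somatic population was at or above ES, with 13 between, a division chosen after the values had been seen. Over all genes tested ES exceeded each somatic population at least 2-fold in 1271, and a somatic population was at or above ES in 8532 (63.8%), a larger share than among the called genes. The genes above every somatic population were led, by level, by Tnp2, Prm1, Akap12 (25.3 in ES, 6.59 in RS), Tnp1 and Odf1. The largest ratios to the next germ population included Cabs1, a calcium-binding protein gene of the sperm tail, at 11.0 in ES and 1.69 in RS (log2 ratio 2.63), Hspa1l, a testis heat shock protein gene, at 8.18 in ES and 1.58 in RS (log2 ratio 2.30), and Tssk6, a kinase gene needed for chromatin condensation, at 5.08 in ES and 0.956 in RS (log2 ratio 2.29). Oxct2a and Oxct2b, testis copies of the ketone-body enzyme gene, had similar ratios with 1.76 in ES and 0.280 in RS (log2 ratio 2.29) and 2.13 in ES and 0.346 in RS (log2 ratio 2.32), and as near-identical copies they may share reads. Cabs1 and the overlapping model Gm28434 had nearly the same values, so they are not 2 separate observations.

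Genes of Sertoli and Leydig cells were among those with a somatic population at or above ES. Clu, a secreted chaperone abundant in Sertoli cells, was at 2.50 in undiff. SpG, 3.74 in diff. SpG, 3.72 in pL, 8.20 in eL/L/Z, 3.01 in L/Z/eP, 1.55 in mP/lP, 3.20 in D, 2.90 in RS and 31.3 in ES, and at 34.1 in Sertoli and 91.5 in somatic (CKO). Gstm7, a glutathione transferase gene, was at 2.91 in ES, 0.189 in RS and 6.29 in somatic (CKO). Star, which carries cholesterol into mitochondria in Leydig cells, was at 0.905 in ES, 0.0628 in RS and 4.18 in somatic (CKO). Only Clu of these 3 was among the 15 genes highest in ES, a list that also held Sparc, a matrix protein gene of Sertoli cells, at 19.6 in ES, 2.14 in RS and 58.1 in Sertoli.

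Against RS, the population nearest in development, 1484 genes were at least 2-fold higher in ES and 1656 (12.4%) at least 2-fold lower. These counts were 172 and 266 with 1 added in place of 0.1, and 2438 and 2233 with 0.01 added. Of the 1484 higher genes, 1234 (83.2%) were also at least 2-fold higher in somatic (CKO) than in RS, against 20.7% of all genes tested and 2 of the 1656 lower genes. Both ratios share the RS column, so this count carries its error. Among the 3014 tested genes with under 0.2 per 10000 in every somatic population, 57 were higher in ES and 886 lower, a restriction added after the values were seen. It also left out spermatid genes with RNA in somatic (CKO), such as Tnp2 at 2.03, Prm1 at 1.54, Odf1 at 0.956 and Tnp1 at 0.637. Of the 302 genes above every other control germ population it kept 55, so its counts do not describe germ cell genes as a whole. Scaling by the median ratio over shared genes instead of the total moved the split to 1145 higher and 2575 lower, and the median over all genes from 0.12 to -0.098. Over these genes the log2 profile of ES had a Pearson correlation of 0.807 with D, 0.763 with RS, 0.762 with somatic (CKO) and 0.510 with Sertoli, across 13368 genes that are not independent. The ES cells of cluster 22 and the somatic (CKO) cells share barcodes as given above, and the part this had in these counts was not tested.

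**Figure D3:**
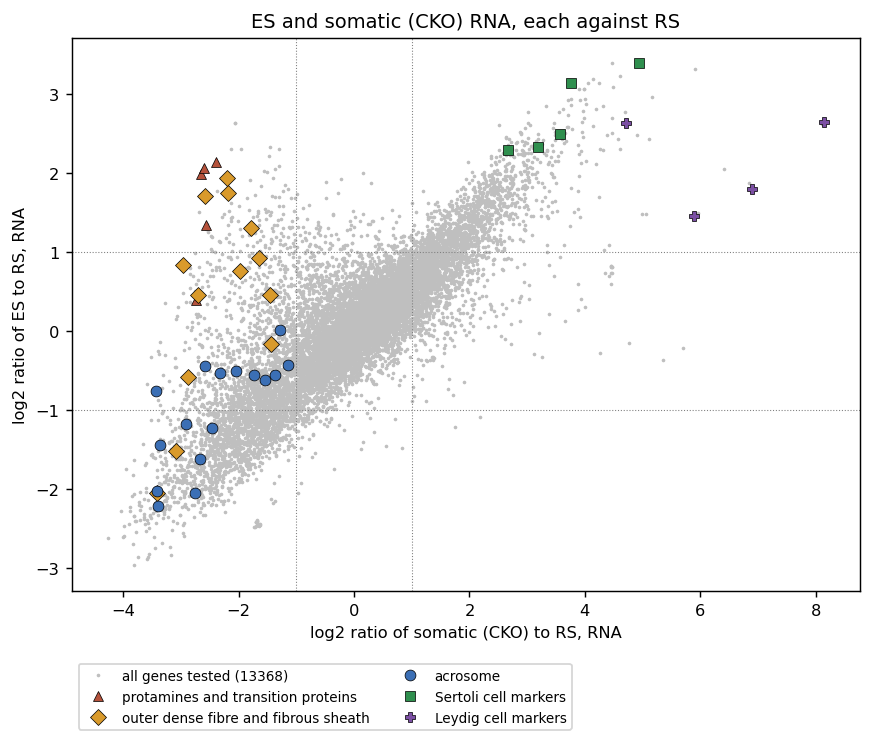
Log2 ratio of ES to RS (vertical) against that of somatic (CKO) to RS (horizontal) for 13368 genes (grey, 1 point per gene), with 5 gene lists in colour and dotted lines at 2-fold. Protamine and transition protein genes lie high at the left except Prm3, whose log2 ratio of ES to RS was 0.39. Acrosome genes lie low at the left, and Sertoli and Leydig markers high at the right. The 2 axes share the RS column.

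Sertoli markers were higher in ES than in any other control germ population when summed. The 7 Sertoli markers summed to 41.2 per 10000 in ES, 4.21 in RS, 2.82 to 14.7 over the other 8 control germ populations, 77.0 in Sertoli and 108 in somatic (CKO). All 5 that could be tested were at least 2-fold higher in ES than in RS, with a median log2 ratio of 2.48, and 1, Clu, was at least 2-fold above every other control germ population, beside 11.1% and 2.26% of all genes. Clu alone made 31.3 of the 41.2 in ES. Sox9, a Sertoli transcription factor gene, was at 1.90 in ES and 0.299 in RS (log2 ratio 2.32), and Wt1, another, at 2.45 in ES and 0.424 in RS (log2 ratio 2.29). Cldn11, which seals Sertoli cell junctions, was at 4.01 in ES and 0.370 in RS (log2 ratio 3.13).

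The 6 Leydig markers summed to 5.96 in ES, 0.819 in RS, 0.212 to 1.31 over the other control germ populations and 226 in somatic (CKO). All 4 tested were at least 2-fold higher in ES than in RS, beside 11.1% of all genes. Of the 4, Star and Hsd3b6 passed the minimum of 0.2 through ES alone, at 0.905 and 0.263. Their next germ populations held 0.145 and 0.0434, so nothing is read from these calls. Cyp17a1, an androgen synthesis enzyme gene, was at 0.809 in ES and 0.162 in RS (log2 ratio 1.80). Insl3, a Leydig hormone gene, was at 3.81 in ES and 0.527 in RS (log2 ratio 2.64), though its reads overlap those of Jak3. Markers of macrophages and of peritubular and endothelial cells were low in ES, at most 0.0558 for the macrophage list (Cd68) and 0.160 for the other (Acta2). The part of somatic RNA in the ES column was not tested.

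Among the 15 genes with the highest level in ES, Nkain2 and Asxl3 were about as high in RS and BC051142 was higher there. Nkain2, a membrane protein gene best known in brain, was at 2.41 in undiff. SpG, 23.7 in diff. SpG, 0.362 in pL, 1.05 in eL/L/Z, 1.46 in L/Z/eP, 7.39 in mP/lP, 22.7 in D, 42.4 in RS and 43.2 in ES, and at 49.8 in somatic (CKO). Asxl3, a Polycomb-associated gene, was at 0.975 in undiff. SpG, 10.7 in diff. SpG, 0.287 in pL, 0.381 in eL/L/Z, 0.257 in L/Z/eP, 2.61 in mP/lP, 9.14 in D, 24.2 in RS and 23.8 in ES. BC051142, a testis gene, was at 19.5 in ES and 55.6 in RS (log2 ratio -1.50), while Tcp11, a sperm motility gene, was at 17.5 in ES and 10.8 in RS (log2 ratio 0.70). The remaining 2 models in this group, Gm20388 and Gm42418, were high in nearly every population, from 18.6 to 30.2 and from 12.9 to 51.7 over the control germ populations.

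The 15 genes with the largest ratio to the next germ population also included 4 that were at least 2-fold lower in each somatic population than in ES. Bmp8b, a germ cell signalling factor gene, was at 2.20 in ES and 0.398 in RS (log2 ratio 2.21) and 0.0791 in somatic (CKO). Fscn3, a testis form of the actin-bundling protein fascin, was at 1.87 in ES and 0.386 in RS (log2 ratio 2.02) and 0.0658. Paqr5, a membrane progestin receptor gene, was at 2.18 in ES and 0.455 in RS (log2 ratio 2.04) and 0.115, with 0.730 in somatic (unknown), and 1700080E11Rik was at 1.42 in ES and 0.257 in RS (log2 ratio 2.09) and 0.0451. Wfdc18, a secreted protease inhibitor gene, was among the 15 too, with 0.599 in ES, 0.00171 in RS and 1.49 in somatic (CKO). Wfdc18 and Star, also among the 15, passed the minimum through ES alone, so no ratio is given for them.

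For genes of the chromatin exchange, the background was 11.1% of all genes higher and 12.4% lower. Among the histone variants and linker histones, 2 of 8 genes tested stood at least 2-fold higher in ES than in RS and 0 at least 2-fold lower, with a median log2 ratio of 0.68. H1fnt, a linker histone gene of elongating spermatids, was at 3.25 in ES and 0.788 in RS (log2 ratio 1.91), and H2al2a, a histone gene of the transition step, at 2.44 in ES and 0.693 in RS (log2 ratio 1.68). Without the filter on low values the median of this list was 0.07. Hils1, a further spermatid linker histone gene, was at 2.34 in ES and 1.42 in RS (log2 ratio 0.69). The replication-independent histone genes H3f3b and H3f3a had 3.87 in ES and 4.47 in RS (log2 ratio -0.20) and 0.284 in ES and 0.656 in RS (log2 ratio -0.98). Among factors of histone removal, 1 of 16 genes tested stood at least 2-fold higher in ES than in RS and 1 at least 2-fold lower, with a median log2 ratio of 0.22. The Tssk6 value above was the one higher call. Camk4, a kinase gene of the same process, was the one lower call, at 0.486 in ES and 1.43 in RS (log2 ratio -1.39), and Chd5, a remodeller gene of round spermatids, was at 2.96 in ES and 5.07 in RS (log2 ratio -0.75).

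The genes of the sperm tail's outer dense fibres and fibrous sheath, the stiffening layers around the axoneme, included Odf1 and Akap4: 4 of 13 genes tested stood at least 2-fold higher in ES than in RS and 2 at least 2-fold lower, with a median log2 ratio of 0.75. The lower count lies near the 12.4% of all genes, and 11.1% of all genes were higher. Odf1 is a marker of the label itself, so nothing is read from its higher call. Odf1, a fibre protein gene, was at 0.149 in undiff. SpG, 2.36 in diff. SpG, 0.00944 in pL, 0.0502 in eL/L/Z, 0.148 in L/Z/eP, 0.689 in mP/lP, 2.10 in D, 4.71 in RS and 16.0 in ES. Odf2, a second fibre component, was at 16.5 in ES and 8.70 in RS (log2 ratio 0.92). Akap4, the main scaffold of the fibrous sheath and an X-linked gene, was at 8.29 in ES and 2.47 in RS (log2 ratio 1.71), and Oaz3, an antizyme gene of haploid germ cells, at 11.0 in ES and 2.81 in RS (log2 ratio 1.93). Odf3 went the other way with 1.12 in ES and 4.97 in RS (log2 ratio -2.06). The mitochondrial sheath list, which covers the midpiece, had 0 higher and 0 lower of 12 and a median log2 ratio of 0.33. Its Smcp, a capsule protein gene, was at 10.6 in ES and 6.36 in RS (log2 ratio 0.72), and Cox6b2, a testis form of a respiratory subunit, at 7.94 in ES and 14.6 in RS (log2 ratio -0.87).

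Among glycolytic isozymes of sperm, 2 of 11 genes tested stood at least 2-fold higher in ES than in RS and 0 at least 2-fold lower, with a median log2 ratio of 0.83. With 11.1% of all genes higher and 12.4% lower, these counts lie near the background. Pgk2, a testis phosphoglycerate kinase gene, was at 5.51 in ES and 1.98 in RS (log2 ratio 1.43), and Hk1, hexokinase, at 6.21 in ES and 3.12 in RS (log2 ratio 0.97). Gapdhs, the sperm form of GAPDH that sits on the fibrous sheath, was at 8.00 in ES and 4.44 in RS (log2 ratio 0.84). Ldhc, the testis lactate dehydrogenase gene, was at 10.1 in ES and 7.07 in RS (log2 ratio 0.51) and was highest in mP/lP at 11.7. The list of the perinuclear theca, the casing of the sperm head, lay above the all-gene median: 3 of 10 genes tested stood at least 2-fold higher in ES than in RS and 1 at least 2-fold lower, with a median log2 ratio of 0.50. Actrt2 was at 1.20 in ES and 0.344 in RS (log2 ratio 1.55) and Spem1, needed to shed the cytoplasm, at 1.91 in ES and 0.697 in RS (log2 ratio 1.34). Capza3, an actin-capping gene of the sperm head, was at 1.44 in ES and 0.668 in RS (log2 ratio 1.01). The one lower call was Plcz1, the egg-activating phospholipase gene, at 2.51 in ES and 8.00 in RS (log2 ratio -1.63).

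For the acrosome, 0 of 16 genes tested stood at least 2-fold higher in ES than in RS and 7 at least 2-fold lower, with a median log2 ratio of -0.69, and ES was the highest control germ population for 0 of them. Over all genes 12.4% were lower and 11.1% higher, so the higher counts of this list and of the next lists lie near the background. Acrv1, an acrosomal matrix gene, was at 0.157 in undiff. SpG, 1.18 in diff. SpG, 0.00868 in pL, 0.137 in eL/L/Z, 0.385 in L/Z/eP, 0.580 in mP/lP, 2.04 in D, 7.19 in RS and 2.56 in ES. Izumo1, the sperm partner of the egg receptor JUNO, was at 0.504 in ES and 2.72 in RS (log2 ratio -2.22), and Tmco5 at 4.60 in ES and 7.88 in RS (log2 ratio -0.76). The sperm-egg interaction list, which shares Izumo1, had 1 of 15 higher and 6 lower. Its higher gene was Adam3, a sperm surface gene, at 4.96 in ES and 2.26 in RS (log2 ratio 1.10). Among the sperm ion transport genes, 0 of 15 genes tested stood at least 2-fold higher in ES than in RS and 5 at least 2-fold lower, with a median log2 ratio of -0.60. Catsper4, a pore subunit of the sperm calcium channel, was at 0.605 in ES and 3.66 in RS (log2 ratio -2.42), while Atp1a4, the sperm sodium pump gene, was at 2.75 in ES and 1.73 in RS (log2 ratio 0.64).

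Genes of the axoneme and manchette also lay below RS at the median. For the axoneme, 0 of 17 genes tested stood at least 2-fold higher in ES than in RS and 3 at least 2-fold lower, with a median log2 ratio of -0.55. Tekt2, a tektin gene of the doublet microtubules, was at 0.435 in ES and 1.20 in RS (log2 ratio -1.28), and Rsph1, a radial spoke gene, at 7.07 in ES and 4.07 in RS (log2 ratio 0.78). For the manchette and head-tail coupling, 1 of 16 genes tested stood at least 2-fold higher in ES than in RS and 5 at least 2-fold lower, with a median log2 ratio of -0.55. Beside 11.1% of all genes higher and 12.4% lower, the axoneme counts and the 1 higher call of the manchette lie near the background. The manchette is the microtubule skirt that shapes the elongating head. Spag16 was at 2.88 in ES and 9.01 in RS (log2 ratio -1.61) and Rimbp3 at 1.05 in ES and 0.366 in RS (log2 ratio 1.30), the lowest and the highest ratio of that list. Hook1, which tethers the manchette, was at 4.77 in ES and 5.47 in RS (log2 ratio -0.19).

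Counts of translation, transcription, ubiquitin and kinase genes stand beside 11.1% of all genes higher and 12.4% lower, and several lie near or below it. Among translation control genes, 0 of 19 genes tested stood at least 2-fold higher in ES than in RS and 1 at least 2-fold lower, with a median log2 ratio of -0.077. Ybx2, the main masking protein of germ cell messages, was at 2.44 in undiff. SpG, 10.6 in diff. SpG, 2.19 in pL, 9.75 in eL/L/Z, 21.6 in L/Z/eP, 35.3 in mP/lP, 24.2 in D, 15.7 in RS and 29.5 in ES. Spermatid transcription regulators had 0 of 13 higher and 2 lower, among them Crem at 1.73 in ES and 3.80 in RS (log2 ratio -1.09) and Rfx3, a factor of ciliary genes, at 0.717 in ES and 2.08 in RS (log2 ratio -1.42). In the ubiquitin pathway list, 5 of 15 genes tested stood at least 2-fold higher in ES than in RS and 0 at least 2-fold lower, with a median log2 ratio of 0.88. Rnf133, a spermatid ubiquitin ligase gene, was at 1.79 in ES and 0.367 in RS (log2 ratio 2.01). Spermatid kinases split, with 3 of 8 higher and 2 lower. Tssk3 was at 3.47 in ES and 1.64 in RS (log2 ratio 1.04), Prkaca, the catalytic subunit of protein kinase A, at 1.31 in ES and 0.490 in RS (log2 ratio 1.25), and Tssk4 at 0.380 in ES and 1.30 in RS (log2 ratio -1.54).

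Messages of earlier stages were still measured, and the counts of these short lists are near or below the background of 11.1% of all genes higher and 12.4% lower, apart from the 2 higher spermatogonial markers. The meiotic prophase list had 0 of 24 higher and 1 lower, with a median log2 ratio of -0.17. Sycp1, a gene of the synaptonemal complex, was at 5.73 in ES, 8.80 in RS and 25.3 in L/Z/eP. Smc1b, the meiotic cohesin gene, was the one lower call at 2.38 in ES and 4.92 in RS (log2 ratio -1.02). For cell division, 1 of 16 genes tested stood at least 2-fold higher in ES than in RS and 0 at least 2-fold lower, with a median log2 ratio of 0.10. Median-of-ratios scaling moved that median to -0.12, as it moved the all-gene median from 0.12 to -0.098. Cdk1, the mitotic kinase gene, was the higher call at 0.737 in ES and 0.309 in RS (log2 ratio 1.03). Among spermatogonial markers, 2 of 6 genes tested stood at least 2-fold higher in ES than in RS and 1 at least 2-fold lower, with a median log2 ratio of 0.49. Uchl1 was at 2.11 in ES and 0.620 in RS (log2 ratio 1.62) and 4.87 in somatic (CKO), and Etv5 at 0.568 in ES and 0.116 in RS (log2 ratio 1.63) and 1.03. Of the NF-Y subunits Nfya was at 0.767 in ES and 0.725 in RS (log2 ratio 0.071), Nfyb at 0.209 in ES and 0.123 in RS (log2 ratio 0.47) and Nfyc at 0.540 in ES and 0.769 in RS (log2 ratio -0.44). The 6 genes at least 2-fold below every other control germ population (0.0449% of those tested) were Pet2, Gm48765, Mpp7, Otud7a, Ppfia3 and Nbea. Of these, 2 are genes of vesicle traffic, Ppfia3 at 0.591 in ES and 2.0 in RS (log2 ratio -1.60) and Nbea at 1.06 in ES and 2.99 in RS (log2 ratio -1.41). Of the multicopy X and Y list only Zfy1 and Zfy2, zinc finger genes of spermatids, could be tested, at 0.0945 in ES and 0.260 in RS (log2 ratio -0.89) and 0.227 in ES and 1.01 in RS (log2 ratio -1.77).

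X-linked genes, which are silenced at pachytene, gave 1.76% of ES RNA, 1.25% of RS RNA, 1.05% in D and 0.566% in mP/lP. The somatic populations lay at 3.33% in Sertoli and 2.43% in somatic (CKO). Without Akap4, its most abundant X-linked gene, ES was at 1.67%. Mitochondrial genes took 113 per 10000 in ES and 78.9 in RS.

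Few ES cells had open chromatin data from the same nucleus. In the Cre/+ testis 121 of 1190 ES cells (10.2%, exact interval 8.51 to 12%) had a barcode in the scATAC-seq library, against 59.8% of RS, 64.6% of D and 91.9% of mP/lP cells and 11.4% of somatic (CKO) cells. On barcodes found in 1 scRNA-seq library alone the share was 18.8% in ES, 56.4% in RS and 62.5% in somatic (CKO). By cluster and over all libraries it was 6.96% in cluster 22 (52 cells) and 16.1% in cluster 27 (72 cells), and for the 42 cluster 22 cells on unshared barcodes it was 61.9%. ES made up 1.70% of the 7135 Cre/+ scATAC-seq cells that carried an RNA type. The Cre/+ ES cells that were recovered had a median of 18318 fragments, a transcription start site enrichment of 8.19 and a nucleosome ratio of 0.483, against 12664, 7.38 and 0.643 in RS.

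No population of the scATAC-seq annotation was named ES, and the 124 cells were spread over 7 of its types. It typed 50 (40.3%) as mP/lP, 32 as RS, 20 as Sertoli, 12 as L/Z/eP, 7 as eL/L/Z, 2 as undiff. SpG and 1 as somatic (CKO). For comparison, 65.3% of 4835 RS cells were typed as RS, and 43.7% of D cells, a stage also without a scATAC-seq type of its own, as mP/lP. All 20 Sertoli calls were in cluster 22, where they made 38.5% of 52 cells (exact interval 25.3 to 53.0%). Over all scATAC-seq cells 125740 of 343866 were typed as Sertoli, a total that pools all libraries and includes cells without an RNA type. It is therefore not a like comparison for cluster 22. Among RS cells the next types were mP/lP at 22.3%, L/Z/eP at 7.28% and eL/L/Z at 3.95%, and Sertoli calls were rarer than each of these. In cluster 27 the 0 of 72 cells typed as Sertoli allows a share of up to 4.17%. Among those cells, 34 were typed as mP/lP and 22 as RS. On unshared barcodes 41 of 93 were typed as mP/lP, 24 as RS and 7 as Sertoli. The median start site enrichment was 9.23 in cluster 22 and 6.91 in cluster 27, with 13.6% and 9.13% of fragments in promoters.

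**Figure D4:**
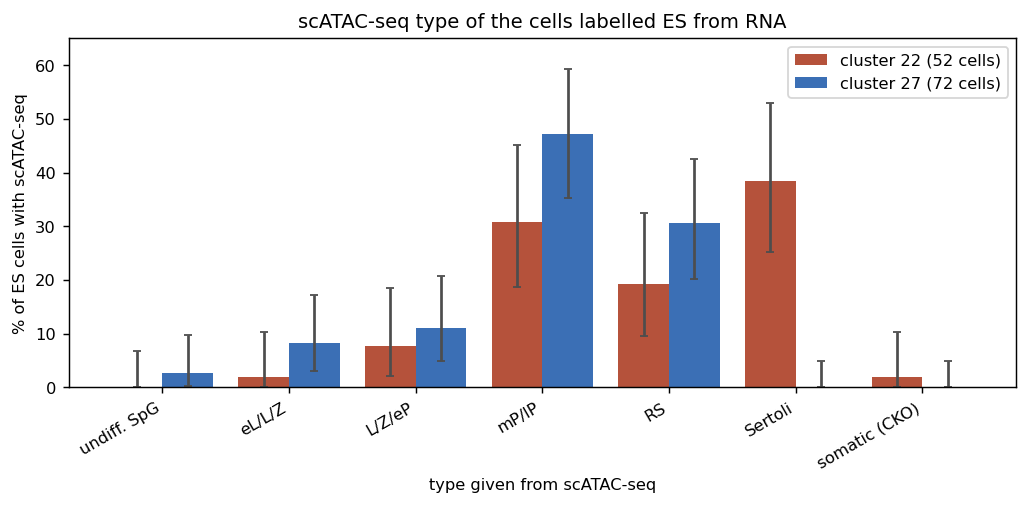
Percentage of ES cells with scATAC-seq given each type by the scATAC-seq annotation, for cluster 22 (52 cells, red) and cluster 27 (72 cells, blue), with exact 95% binomial intervals. Sertoli calls reach 38.5% in cluster 22 and 0 in cluster 27.

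The gene signal of scATAC-seq, scaled here to 1000000 over nuclear genes, had protamine and transition protein genes lower in ES than in RS, where their RNA was higher in ES. It too is a mean over the whole label and could not be divided by cluster. Tnp2 was at 13.8 in undiff. SpG, 25.8 in diff. SpG, 12.5 in pL, 16.1 in eL/L/Z, 22.6 in L/Z/eP, 33.4 in mP/lP, 48.8 in D, 80.8 in RS and 33.8 in ES. Prm1 was at 3.02 in ES and 13.2 in RS (log2 ratio -1.82), Prm2 at 18.7 in ES and 38.9 in RS (log2 ratio -1.02), Prm3 at 41.0 in ES and 90.6 in RS (log2 ratio -1.13) and Tnp1 at 28.4 in ES and 53.9 in RS (log2 ratio -0.90). All 5 were lower, 4 of them at least 2-fold, against 13.2% of 22208 genes tested (2940 genes) and an all-gene median of -0.087. Odf1 was at 20.8 in ES and 78.7 in RS (log2 ratio -1.87) and Akap4 at 20.7 in ES and 45.3 in RS (log2 ratio -1.10). Oaz3, whose RNA was also higher, was at 54.4 in ES and 48.3 in RS (log2 ratio 0.17), so not every such gene was lower. Tssk6 was at 80.6 in ES and 86.8 in RS (log2 ratio -0.11), near the all-gene median.

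Lists of the sperm tail and head had lower calls in the gene signal, where 13.2% of all genes were lower and 9.13% higher. In a single list of this length, 0 higher calls lie near that background, though every list whose calls are given here had 0. The perinuclear theca had 0 of 11 at least 2-fold higher, 6 at least 2-fold lower and a median log2 ratio of -1.16, the spermatid kinases 0 of 8 at least 2-fold higher, 4 at least 2-fold lower and a median log2 ratio of -0.93, and the mitochondrial sheath 0 of 12 at least 2-fold higher, 5 at least 2-fold lower and a median log2 ratio of -0.91. The outer dense fibre and fibrous sheath had 0 of 13 at least 2-fold higher, 4 at least 2-fold lower and a median log2 ratio of -0.82, and sperm ion transport 0 of 15 at least 2-fold higher, 6 at least 2-fold lower and a median log2 ratio of -0.83. The acrosome list, lower in RNA too, had 0 of 16 at least 2-fold higher, 5 at least 2-fold lower and a median log2 ratio of -0.66. The axoneme had 0 of 17 at least 2-fold higher, 4 at least 2-fold lower and a median log2 ratio of -0.61. Manchette and head-tail coupling had 0 of 17 at least 2-fold higher, 3 at least 2-fold lower and a median log2 ratio of -0.32. Lower calls of the axoneme and manchette lie nearer to the share over all genes. Hk1 was at 15.3 in ES and 54.0 in RS (log2 ratio -1.76) and Izumo1 at 16.2 in ES and 44.9 in RS (log2 ratio -1.41). Medians nearer to the all-gene median were -0.025 for translation control, -0.15 for spermatid transcription regulators, -0.17 for factors of histone removal and -0.19 for cell division.

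**Figure D5:**
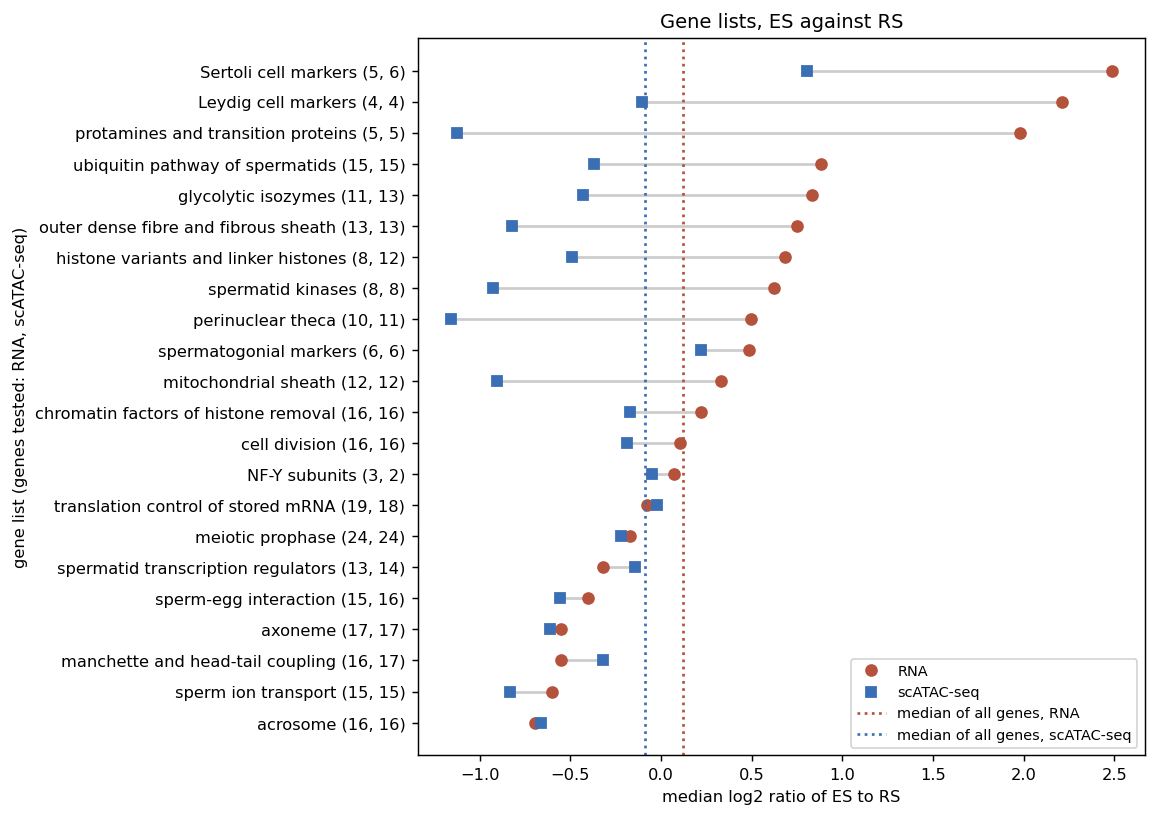
Median log2 ratio of ES to RS of each gene list in RNA (circles) and in scATAC-seq gene signal (squares), ordered by RNA, with dotted lines at the medians of all genes tested (0.12 and -0.087). The numbers in brackets are the genes tested in each assay. Protamines and transition proteins stand at 1.98 in RNA and -1.13 in scATAC-seq.

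Sertoli markers were the list with the highest gene signal ratio among lists with at least 3 genes tested: 2 of 6 at least 2-fold higher, 0 at least 2-fold lower and a median log2 ratio of 0.80. Over all genes 9.13% were higher and 13.2% lower. Clu was at 56.3 in ES and 11.8 in RS (log2 ratio 2.16) and 118 in Sertoli, and Sox9 at 50.8 in ES and 18.2 in RS (log2 ratio 1.43) and 128 in Sertoli. Beside this, 20 of the 124 cells were typed as Sertoli, and their part in these values was not tested. Leydig markers had 1 of 4 at least 2-fold higher, 1 at least 2-fold lower and a median log2 ratio of -0.11, and Insl3 was at 4.63 in ES and 8.19 in RS (log2 ratio -0.71).

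Over all genes, 2028 (9.13%) had at least 2-fold more gene signal in ES than in RS, and 1133 (5.1%) at least 2-fold more than in every other control germ population. With a minimum of 50 in place of 10 the counts were 491 and 142, and 484 genes were at least 2-fold lower than in RS. Of the genes at the extremes, Vmn1r121, a vomeronasal receptor gene, was at 43.8 in ES and 0.385 in RS and passed the minimum through ES alone, so no ratio is given. The counts of 2028 and 1133 include it. A2m was listed at 0 in ES and at 20.7 in RS. The 124 cells of the ES label held 2936872 fragments in all, and 2456 of 30657 nuclear genes were at 0 in ES against 188 in RS. Of 1432 genes at least 2-fold higher in ES RNA and tested in both, 99 were at least 2-fold higher and 97 at least 2-fold lower in gene signal. Over the 22208 genes tested in scATAC-seq, 9.13% were higher and 13.2% lower. The median gene signal ratio was 0.014 for the genes higher in ES RNA and -0.49 for those at least 2-fold lower. Over all 12726 genes tested in both it was -0.099. The ratios of the assays had a Pearson correlation of 0.235 across these 12726 genes, which are not independent.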

How the data were processed

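Members and gene lists were chosen with earlier results of these data known. Per the labels and methods, the authors aligned reads to mm10 with STAR 2.7.10b and BWA 0.7.12, used bedtools 2.27.1, kept cells with at least 500 genes and under 5% mitochondrial UMIs in Seurat 5.2.1, or at least 1000 fragments and a start site enrichment of 4 in ArchR 1.0.3, and removed doublets before deposit. The deposited cell tables give counts of UMIs, genes and fragments per cell, the percent of mitochondrial UMIs, the nucleosome ratio and the fraction of fragments in promoters, as the authors computed them. The deposited matrices hold, for 13 populations, the natural log of 1 plus the mean per 10000, pooled over libraries with no SD or n. A total of 12 other columns of the cell tables were not used.

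Here values were turned back with exp(value) - 1. RNA was compared with 0.1 added, over genes with at least 0.2 per 10000 in 1 of the 9 control germ populations. scATAC-seq gene signal was scaled to 1000000 without mitochondrial genes and compared with 1 added, over genes with at least 10. A gene was called at a 2-fold ratio. Without replicates no test was made. Chromosomes for the X share came from GENCODE M21, which matched 27457 of 28125 genes. Of 301 listed genes 299 were in the RNA matrix. Named genes were the protamine and transition genes and markers, up to 4 members of each other list with the highest ES level and those with the highest and lowest ratio, the 15 genes highest in ES, the 15 with the largest and 10 with the smallest ratio to other germ populations, and the 5 at each end of scATAC-seq. Alternatives changed the pseudocount, filter, scaling and cell thresholds. The counting was tested on simulated data. Python 3.11.15, pandas 2.3.3, numpy 2.4.6 and scipy 1.17.1 were used.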

Additional observations from a re-analysis of the deposited data

Results flagged for a closer look

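Barcodes of ES cells occurred in libraries of the Nfya-CKO testis, which the annotation gave no ES cells. In scRNA-seq 711 of 1195 ES barcodes also occurred in the Nfya-CKO library (59.5%), 705 of them in cluster 22, and every one of these Nfya-CKO cells was labelled somatic (CKO). That partner label was not particular to ES, as 609 of 610 partners of RS cells of the Cre/+ library had it too. In scATAC-seq 647 ES barcodes (54.1%) occurred in the Nfya-CKO library, 644 of them typed as Sertoli. Both were singled out because the annotation placed no ES cell in either Nfya-CKO library. No cause was tested.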

How the results depend on the processing

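No paired analysis was possible because each condition had 1 library per assay, and for the same reason no replicate could be left out. Of 209 alternative values, 178 stayed within the error allowed, which was the counting interval for shares and depths, 1.5 times for counts of genes and, for lists, an interval of the median over members that is wide in short lists. In the Cre/+ library the ES share of 9.92% became 9.26% among cells under 2% mitochondrial UMIs and 5.85% without shared barcodes. The median depth of 2548 UMIs became 3309 among cells with at least 1000 genes and 1626 without shared barcodes.

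The RNA counts depended on low values. With a pseudocount of 1, 63 genes stood above every other control germ population, 0 below every other, 172 above RS and 266 below RS. With a pseudocount of 0.01, 41 stood below every other and 2438 above RS. Restricted to genes with at least 1 per 10000, 177 stood above every other, 736 above RS and 825 below RS, with 5871 genes tested. Median-of-ratios factors left 2575 below RS. Among genes under 0.2 per 10000 in every somatic population, 55 stood above every other, 57 above RS and 886 below RS. These genes do not include Tnp2, Prm1, Tnp1 and Odf1, which exceeded 0.2 in somatic (CKO). That restriction and the removal of shared barcodes were chosen after seeing the data.

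In scATAC-seq a pseudocount of 5 left 748 genes above every other and 1829 below RS. A minimum of 50 left 142 above every other, 491 above RS and 484 below RS. Without a filter 6086 stood below RS. Scaling with the mitochondrial genes gave 617 above every other and 1217 above RS.

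Median-of-ratios factors lowered the ratios of all genes about alike, with the all-gene RNA median going from 0.12 to -0.098. The medians of 2 lists near it changed sign, cell division from 0.10 to -0.12 and NF-Y subunits from 0.071 to -0.19. Nothing is read from these sign changes. Translation control moved to -0.36 and Sertoli markers to 2.26. The histone variant list fell from 0.68 to 0.07 without a filter. With a pseudocount of 1 the Sertoli markers were at 1.28 and the Leydig markers at 0.74, and with 0.01 the Leydig markers were at 2.75. The cause of these shifts beyond the settings themselves was not tested. Only 124 cells carried the ES label in scATAC-seq, and the columns gave no spread between cells.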
